A study of Cavia porcellus with 72 samples.

Results

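Listed intergenic windows that lie within 50 kb of the nearest transcription start site (TSS) are described here, in the hippocampal DNA of juvenile female guinea pigs of 3 generations. They were chosen by position alone, as windows of 100 bases that the deposited annotation places in intergenic DNA at an absolute distance of at most 50 kb from a TSS. There were 15591 such windows among 53723 listed in F1 (29.0%), 12563 among 41660 in F2 (30.2%) and 13457 among 46788 in F3 (28.8%). Over the 3 tables these were 41611 of 142171 rows, at 36997 of 126534 distinct positions.

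All animals were Dunkin-Hartley guinea pigs on postnatal day 40, in generations that descend through the paternal line from F0 pregnancies. The pregnant F0 animals received either betamethasone, a synthetic glucocorticoid (sGC), or saline as the control, and the F1 offspring were exposed in the womb. F2 and F3 animals were bred from F1 and F2 males with females from outside the experiment, so each generation had its own control and sGC animals. By the sample labels, DNA methylation was measured by bisulfite sequencing of captured regions in 6 control animals and 6 sGC animals of each of F1, F2 and F3. For F3 the series' own design text gives another split, so the size of its groups is uncertain. The capture probes were aimed at promoters and at sites marked by RNA polymerase II or by H3K4me1, and not at the whole genome. At promoters and at the larger H3K4me1 sites only a central stretch was captured. Added probes covered all promoters and enhancers of a list of genes that the authors chose beforehand. Values per animal and read depth behind each window were not analysed here.

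Intergenic DNA near genes holds many distal regulatory elements. Enhancers bind transcription factors and act on promoters at a distance, and H3K4me1 is a histone mark commonly found on their flanks. Cytosine methylation at CpG sites in such elements differs between cell types more than methylation of CpG island promoters does. The glucocorticoid receptor, which binds cortisol and betamethasone, occupies many sites of this kind far from promoters, and the hippocampus is rich in this receptor.

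Being listed already depended on the comparison of sGC with control animals. Every listed window had a methylation difference of at least 2 percentage points between the groups of its generation. A listed window was thus covered and had at least this difference. Whether another cut, such as one on p-values, also decided the listing was not examined. A missing window may have had a smaller difference or too little coverage, or have failed such a cut. It may also have lain outside the scaffolds that its table covers. Apart from that last case, the reasons cannot be told apart for a single window. The direction and size of the differences are the authors' own results and were not used, so no window is called higher or lower here. No test of sGC against control was made, and the counts and shares that follow are descriptions of which positions were listed.

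The tissue was checked in the RNA-seq data of the series, 36 libraries of 13507449 to 19767033 counted reads. Of 8 hippocampal neuron markers, 7 were listed in the tables of all 3 generations, with a summed level per library of 1806 to 2970 CPM (counts per 1000000 counted reads), and ZBTB20 was not found. Astrocyte markers summed to 8371 to 15450 CPM (8 of 9 listed), oligodendrocyte markers to 866 to 1491 (3 of 6), endothelial markers to 352 to 497 (5 of 5) and microglia markers to 190.8 to 315 (5 of 8). Of 5 choroid plexus markers only FOLR1 and KL were listed, with a sum of 17.5 to 42.2 CPM, and TTR, AQP1 and KCNJ13 were not found. All 7 meningeal fibroblast markers were listed, with a sum of 66.3 to 278 CPM, and 5 of them reached 1 CPM in every library. ALDH1A2 (0.421 to 3.29 CPM) and SLC22A2 (0.158 to 2.37 CPM) did not. The lists hold different genes, so their sums do not rank the cell types. DNA and RNA were extracted together from powdered right hippocampus, so the RNA bears on the same kind of tissue, but it gives no share of cells, and the part of cell composition in the window lists was not tested.

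The scaffolds covered by the tables differed between generations. In F2 every listed window lay on the 87 scaffolds numbered 0 to 86 in the cavPor3 assembly, whereas the intergenic windows within 50 kb lay on 352 scaffolds in F1 and 344 in F3. In F1, 3544 windows lay on 265 scaffolds with higher numbers, and in F3 3128 windows lay on 257 such scaffolds. On the scaffolds shared by all tables the counts were 12047 in F1 (77.3% of its windows), 12563 in F2 (all of its windows) and 10329 in F3 (76.8%). Whether the F2 table holds the whole F2 result is not known, so its totals, its share of windows listed in no other generation and its lack of unannotated windows apply to these scaffolds only. F1 had the most windows over the full tables, and F2 had the most where all 3 tables had entries. Scaffold by scaffold, F2 had more windows than F1 on 48 of the 87 and fewer on 36. F3 had fewer windows than F1 on 71 of the 87 scaffolds and fewer than F2 on 72.

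**Figure D1:**
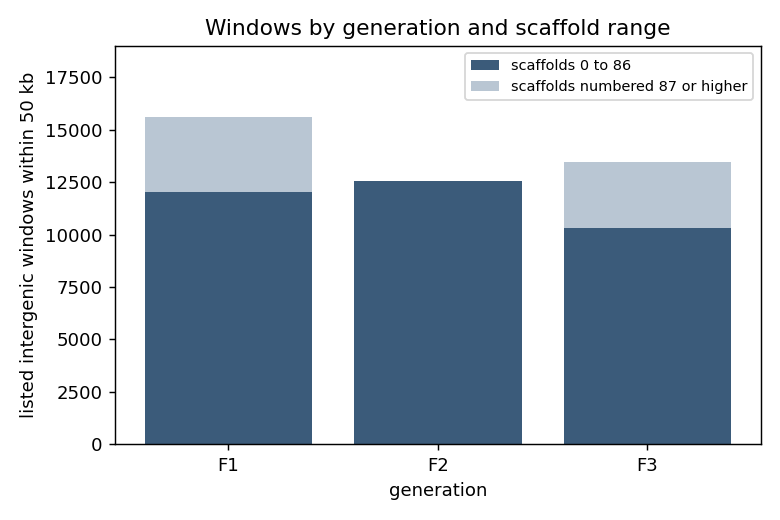
The bars give the number of listed intergenic windows within 50 kb of a TSS (vertical axis) in each generation (horizontal axis), with dark segments for scaffolds 0 to 86 and light segments for scaffolds with higher numbers. The F2 bar, 12563 windows, has no light segment, and its dark segment is taller than those of F1 (12047) and F3 (10329).

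The windows took a similar share of every table. They made up 49.2% of all intergenic windows in F1, 49.0% in F2 and 48.2% in F3, the others lying beyond 50 kb. Introns held 26.9%, 28.9% and 25.6% of all listed windows in F1, F2 and F3. Promoter windows, those just around a TSS, made up 4.54%, 4.66% and 4.20%. On scaffolds 0 to 86 the intergenic windows beyond 50 kb followed the same order of generations, with 12871 in F1, 13093 in F2 and 11282 in F3. Intronic windows there numbered 12079, 12059 and 10050, so that F1 and F2 were nearly equal and F3 was lower. A further 2613 listed windows in F1 and 2984 in F3 carried no annotation, and there were 0 in F2.

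Within the 50 kb the listed windows were denser towards the TSS and mostly upstream of it. The distances of all captured or covered windows were not analysed here, so the part of the capture design in this profile was not tested. The median absolute distance was 18353 bases in F1, with quartiles of 8630 and 31307. In F2 it was 18724 bases (8848 and 31688) and in F3 18816 bases (8918 and 31939), so the 3 distributions nearly coincide. Upstream windows made up 64.1% in F1, 64.2% in F2 and 62.4% in F3. Their median distance was 16911, 17252 and 17227 bases, and that of the downstream windows was 21171, 21378 and 21384 bases. Downstream distances run through the gene itself, whose exons and introns belong to other classes by definition, so that only DNA past the gene's end can be intergenic on that side.

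The upstream share fell with distance. Within 5 kb of a TSS, 76.8% of the F1 windows, 78.3% of the F2 windows and 75% of the F3 windows (1318 of 1757) were upstream. Between 40 and 50 kb the upstream share was 57.7%, 58.6% and 58.6%. Counting both sides in 2-kb bins, the density of windows was highest between 2 and 4 kb, at 548 windows per kb of distance in F1, 404 in F2 and 442 in F3. In F2 the bin from 6 to 8 kb was nearly as dense, at 402 windows per kb. Between 40 and 50 kb, 1878, 1649 and 1706 windows were spread over the 10 kb. Up to 2 kb there were 292, 217 and 234 windows per kb. This innermost bin is partly emptied by the annotation itself, since windows next to a TSS count as promoter windows and those next to a gene's end form a class of their own. The nearest upstream window accordingly lay at 1003 bases in F1 and at 1005 in F2 and F3, and the nearest downstream window at 1101, 1101 and 1108 bases.

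**Figure D2:**
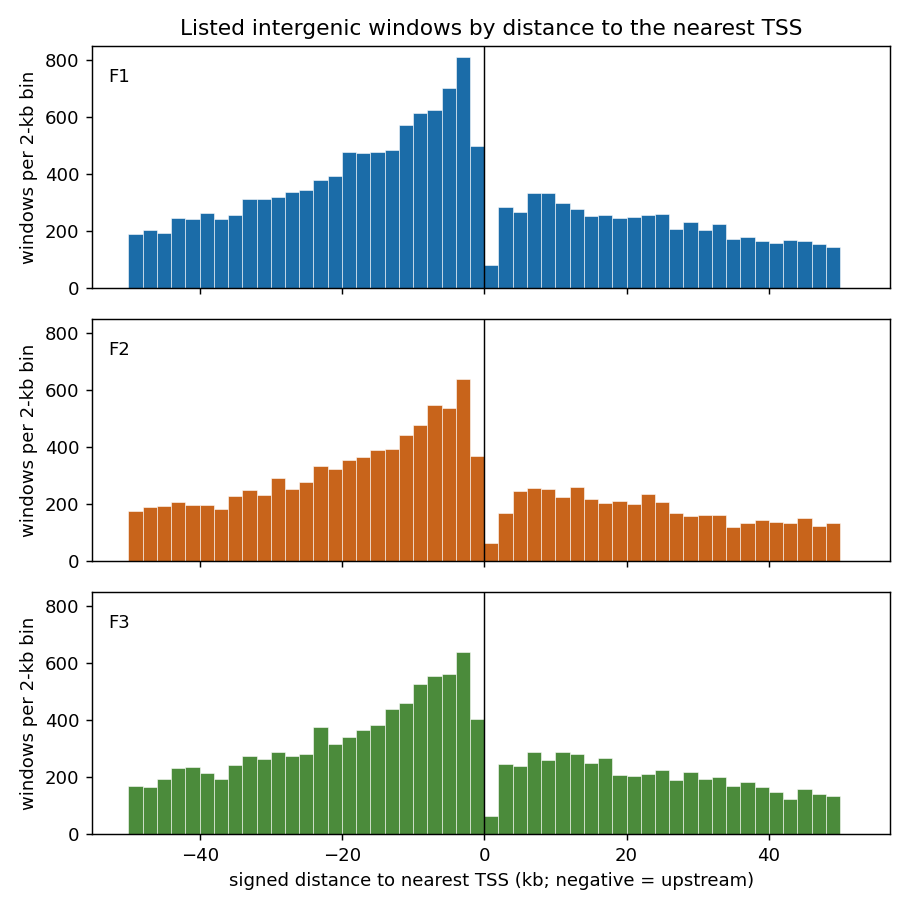
Each panel gives the number of listed windows per 2-kb bin (vertical axis) by signed distance to the nearest TSS in kb (horizontal axis, negative values upstream) for F1, F2 and F3. All 3 panels rise towards the TSS on the upstream side, drop in the bins next to it, and are lower and flatter downstream.

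The limit of 50 kb did not fall in a gap of the distribution. The farthest windows inside it lay at 49989 bases in F1, 49978 in F2 and 49989 in F3, and the first ones outside at 50001, 50008 and 50001 bases. In the last 500 bases inside the limit there were 83, 82 and 80 windows. In the first 500 bases outside it there were 83, 43 and 85, so only F2 had a lower count just beyond the limit.

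Many windows overlapped their neighbours, because windows of 100 bases were laid down every 50 bases. In F1 33.5% of the windows overlapped another listed window of this class, in F2 33.3% and in F3 33.3%. Joined where they overlapped, the windows formed 12860 regions in F1, 10393 in F2 and 11108 in F3, which covered 1422550, 1147800 and 1228250 bases. Of these regions 80.6%, 80.7% and 80.9% were 1 window alone, and 27, 17 and 33 regions joined 4 or more windows. Across the other annotated classes the share of overlapping windows lay between 26.5% and 33.7%, the lowest being windows in exons, transcription ends or untranslated regions.

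The longest joined regions are given with the windows of the other generations that overlap them by at least 1 base. Those windows are fewer in part because each region was chosen for its count in its own generation. The longest, 400 bases on scaffold 537 from 1801 to 2200, joined 7 F3 windows 1108 to 1408 bases downstream of the TSS of ENSCPOG00000029538. This scaffold lies outside the range covered in F2, and no F1 window of the class was listed in these bases. In F1 the longest regions joined 6 windows over 350 bases. The F1 region on scaffold 4 from 16645651 to 16646000 lay upstream of ENSCPOG00000002641 and was overlapped by 2 F2 windows and 0 F3 windows. The F1 region on scaffold 53 from 1966851 to 1967200 lay downstream of ENSCPOG00000020637, with 1 F2 window and 2 F3 windows overlapping it.

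F2's longest regions joined 5 windows over 300 bases. On scaffold 37 the region from 19151351 to 19151650 was overlapped by 1 F1 window and 0 F3 windows. On scaffold 48 that from 2795751 to 2796050 was overlapped by 0 F1 windows and 1 F3 window. On scaffold 123 from 1897801 to 1898100, about 25 kb upstream of ENSCPOG00000007548, the listing was dense in more than 1 generation. Here 5 F3 windows spanned the 300 bases and 4 F1 windows overlapped them, on a scaffold that the F2 table does not cover.

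The nearest gene of each window is given only as an Ensembl identifier, and the files pair these with no gene symbols, so the genes cannot be named here by their function. In F1 the windows pointed to 7533 identifiers, in F2 to 6237 and in F3 to 6664, and to 11463 in all. A single window was listed for 49.6% of the identifiers in F1, 49.3% in F2 and 52.6% in F3. Identifiers with 10 or more windows numbered 65, 35 and 72. On scaffolds 0 to 86 the counts of identifiers were 6143 in F1, 6237 in F2 and 5469 in F3, again with the most in F2.

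Sharing between generations was more frequent by nearest identifier than by position. Of the 11463 identifiers, 2462 (21.5%) had at least 1 window in each generation, and these were 25.4% of the 9681 identifiers on scaffolds 0 to 86. On those scaffolds 3244 identifiers had windows in 2 generations and 3975 in 1 generation. An identifier with many listed windows has more chances of being met in several generations than a single position has, and how many windows were covered near each gene was not analysed here.

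**Figure D3:**
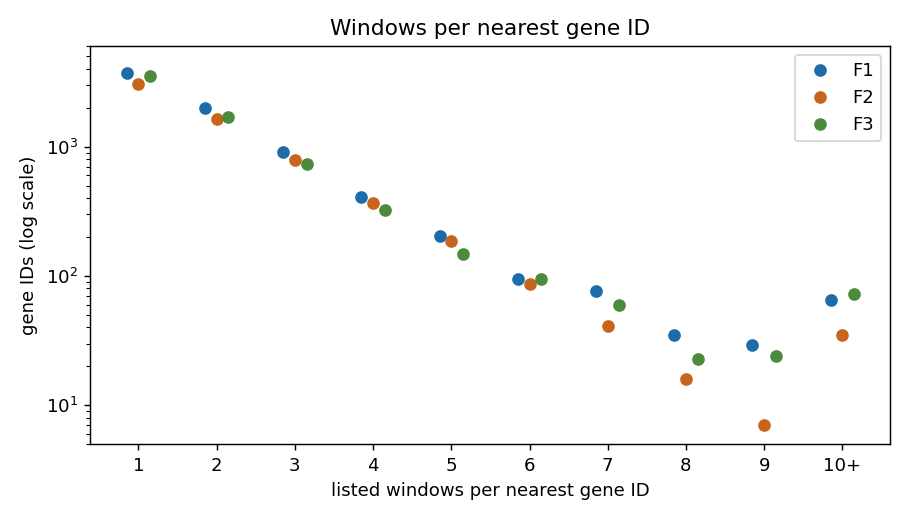
Points give the number of gene identifiers (vertical axis, log scale) with 1, 2 and up to 10 or more listed intergenic windows within 50 kb (horizontal axis) in F1, F2 and F3. Counts fall from 3733, 3073 and 3507 identifiers with 1 window to 29, 7 and 24 with 9 windows, and 65, 35 and 72 identifiers have 10 or more.

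The identifier with the most windows was ENSCPOG00000024530, with 60 distinct windows on scaffold 41 between 16909501 and 16992450. Of these, 32 were listed in F1, 20 in F2 and 27 in F3. They formed 44 separate regions, none longer than 200 bases, with 36 windows upstream and 24 downstream of the TSS. Here 15 of the 60 windows were listed in more than 1 generation and 4 in all 3. These are larger shares than the 12.6% and 0.979% found for all distinct windows of the class on the scaffolds shared by all 3 tables. Most windows at this gene were still listed in 1 generation only. The gene was chosen for its number of windows, and its difference from the class was not tested. Whether it belongs to the genes with added probes was not examined.

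ENSCPOG00000001156 on scaffold 6 had 53 windows, of which 20 were listed in F1, 24 in F2 and 16 in F3. They lay on both sides of the TSS, and none was listed in all 3 generations. ENSCPOG00000011915 on scaffold 13 also had 53, with 17 in F1, 25 in F2 and 23 in F3, and all of them lay upstream, at signed distances of -45064 to -16914 bases. Between these windows and their TSS no intergenic window was listed. ENSCPOG00000007886 on scaffold 23 had 40 windows (14, 15 and 18 in F1, F2 and F3), all upstream, the nearest at -1282 bases. ENSCPOG00000020344 on scaffold 72 also had 40 (19, 15 and 12), with 31 upstream. Each of these genes thus had windows in every generation, and the order of the generations was not the same from gene to gene.

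By the same start, most windows were listed in a single generation. Of the 36997 distinct windows, 32684 (88.3%) were listed in 1 generation, 4012 (10.8%) in 2 and 301 (0.814%) in all 3. These counts require the same start, and where any overlap of at least 1 base counted, 9411 windows (25.4%) were met in more than 1 generation and 1181 (3.19%) in all 3. With identical starts F1 and F2 shared 1632 windows, which were 10.5% of the F1 windows and 13% of the F2 windows. F1 and F3 shared 1895, or 12.2% and 14.1%, and F2 and F3 shared 1388, or 11.0% and 10.3%. Of the 4313 windows listed in more than 1 table, 0 had a different nearest identifier and 0 a different distance between tables.

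Restricting the comparison to scaffolds 0 to 86, where all 3 tables have entries, changed the order of the pairs. There F1 and F2 shared 1632 windows, F1 and F3 1460, and F2 and F3 1388. These were 13.5% and 12.1% of the F1 windows for F2 and F3, 13% and 11.0% of the F2 windows for F1 and F3, and 14.1% and 13.4% of the F3 windows for F1 and F2. Over the full tables F1 shared more windows with F3 than with F2, and on these scaffolds it shared more with F2. Of 30760 distinct windows, 3878 (12.6%) were listed in 2 or 3 generations and all 301 windows listed in every generation (0.979%) are among them. How many windows were covered in each generation is not known from the tables, so these shares were not set against the number that coverage and the table sizes alone would give.

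The share listed more than once was similar in the other classes. On scaffolds 0 to 86 it was 12.4% for intergenic windows beyond 50 kb, 12.4% for introns, 13.2% for promoters and 12.7% for exons, transcription ends and untranslated regions, beside 12.6% for the intergenic windows within 50 kb. The share listed in all 3 generations was 0.931%, 0.932%, 0.924% and 1.18% in those classes. The exon class has the highest value, from 57 windows.

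Distance to the TSS moved the share little. It was 14.2% up to 5 kb, 12.6% from 5 to 10 kb, 12.3% from 10 to 20 kb, 11.7% from 20 to 30 kb, 12.6% from 30 to 40 kb and 13% from 40 to 50 kb. Upstream and downstream windows within 5 kb had nearly equal shares, 14.2% and 14.1%. From 20 to 30 kb the upstream share was 10.9% and the downstream share 12.9%. Windows that overlap can share CpGs, so windows are not independent counts and no test was made of these differences.

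**Figure D4:**
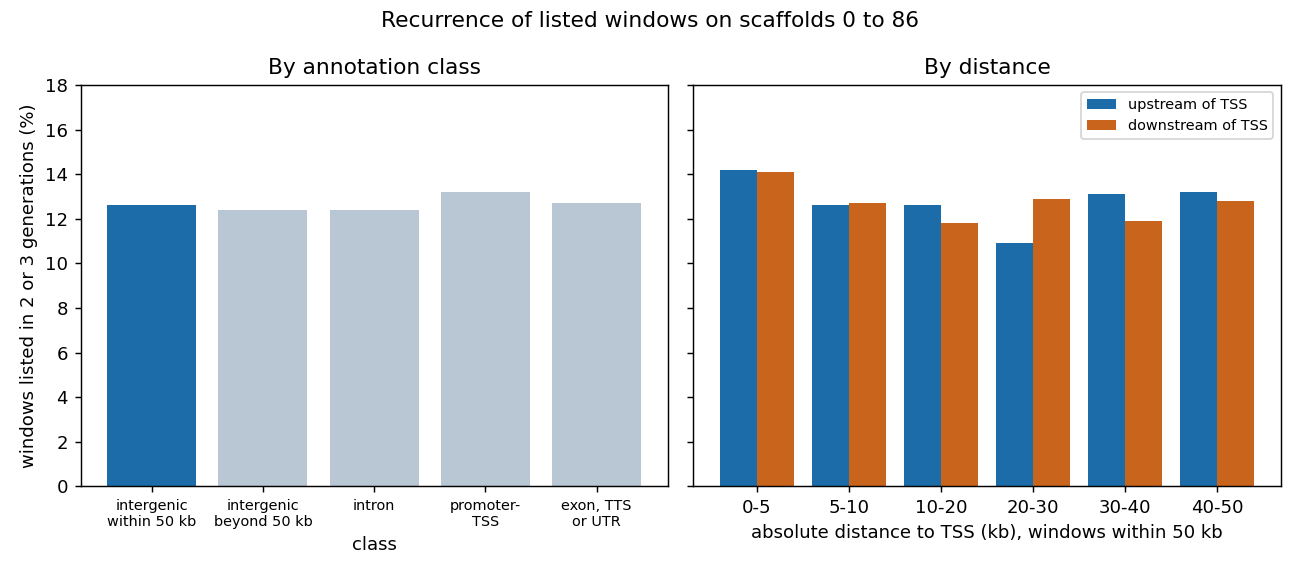
The bars give the share of distinct windows on scaffolds 0 to 86 that were listed in 2 or 3 generations (vertical axis, percent), by annotation class on the left and by absolute distance to the TSS and side on the right. The classes lie between 12.4% and 13.2%, and the distance bins between 10.9% and 14.2%.

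The 301 windows listed in all 3 generations were spread widely. They formed 290 regions, of which 279 were 1 window alone, on 63 scaffolds and near 283 identifiers. Only 1 of these windows lay near each of 268 identifiers, 2 near each of 13, and 3 or more near 2 identifiers. Upstream windows made up 60.8% of them, beside 63.6% of all distinct windows, and their median distance was 19050 bases, beside 18645. Within 5 kb lay 12.3% of them, beside 13.2%.

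ENSCPOG00000024530, which had the most windows in all, also had the most listed in every generation. Its 4 lay on scaffold 41, as a pair from 16927051 to 16927200, about 22 kb downstream of the TSS, and as single windows from 16930251 to 16930350 and from 16983201 to 16983300, the last upstream at -33820 bases. ENSCPOG00000026842 had 3, on scaffold 29 from 1332351 to 1332450, from 1332751 to 1332850 and from 1339201 to 1339300, all downstream at 23221 to 30071 bases. It had 23 windows in all, with 6 in F1, 11 in F2 and 16 in F3.

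A different pattern was seen at ENSCPOG00000010822, whose 2 windows were both listed in F1, F2 and F3. They overlap and cover scaffold 17 from 15757601 to 15757750, upstream of the TSS at -3990 and -3940 bases. At ENSCPOG00000000501 a pair on scaffold 0 from 24276301 to 24276450, about 29 kb upstream, was listed in every generation, out of 4 windows near that gene. At ENSCPOG00000005657 the pair was on scaffold 76 from 7018701 to 7018850, 46215 and 46265 bases downstream, again out of 4 windows. ENSCPOG00000009617 had a pair on the same scaffold from 632151 to 632300, out of 31 windows in all. Repeated listing thus occurred both at genes with few windows and at genes with many.

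Single CpGs were listed in tables of their own, under the same minimum difference of 2 percentage points. They numbered 90611 in F1, 46492 in F2 and 70002 in F3, and on scaffolds 0 to 86 they numbered 42187, 46492 and 38732. Here too the order of the generations over the full tables differed from that on the common scaffolds. The listed CpGs lay on 1201 scaffolds in F1, 87 in F2 and 403 in F3, and all listed windows on 910, 87 and 970. In F1 and F3, full-table shares of windows with a listed CpG thus rest on unlike sets of scaffolds. A window's value pools the reads of all its CpGs, so a window and a CpG inside it are not independent measurements. Whether either list was also cut by another rule was not examined. Why a listed window may hold no listed CpG was therefore not tested.

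Most windows held no listed CpG of their own generation. At least 1 was found in 1158 of the F1 windows (7.43%), 880 of the F2 windows (7.00%) and 1250 of the F3 windows (9.29%). At least 2 were found in 2.02%, 1.74% and 2.87%, and the largest number in a window was 13, 8 and 23. How many CpGs each window contains, listed or not, needs the genome sequence, which was not used here.

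On scaffolds 0 to 86 the windows of a generation did not always hold CpGs of their own generation most often. Of the F1 windows there, 6.21% held a CpG listed in F1, 6.87% a CpG listed in F2 and 5.47% a CpG listed in F3. Of the F3 windows, 7.17% held a CpG listed in F1, 8.42% one listed in F2 and 7.88% one listed in F3. In the F2 windows the shares were 5.23%, 7.00% and 5.08%, with F2's own CpGs highest. In all 3 sets of windows the CpGs of F2 thus gave the highest share, and F2 also listed the most CpGs on these scaffolds. Over the full tables the F1 windows held F1 CpGs most often (7.43%, beside 5.31% for F2 and 6.61% for F3) and the F3 windows held F3 CpGs most often (9.29%, beside 8.69% for F1 and 6.47% for F2), so this order depends on the scaffolds counted.

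**Figure D5:**
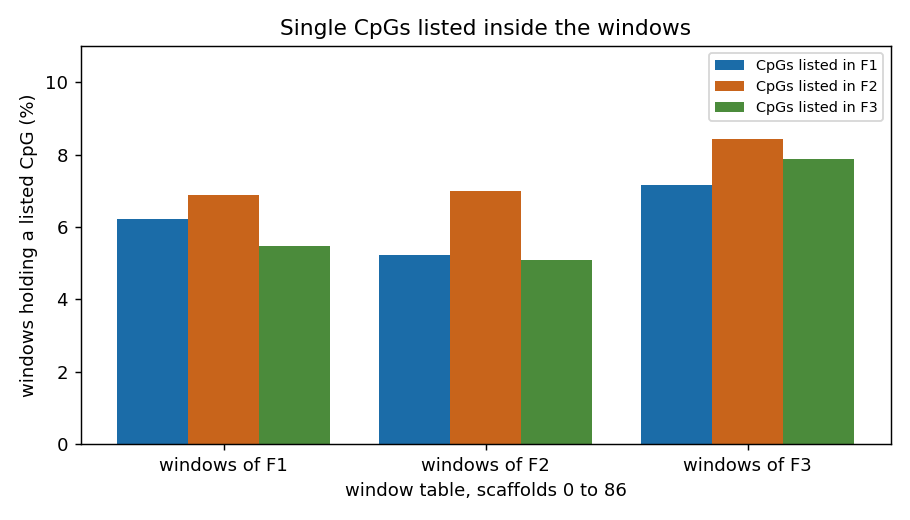
The bars give the share of intergenic windows within 50 kb on scaffolds 0 to 86 that hold at least 1 listed CpG (vertical axis, percent), by the generation of the windows (horizontal axis) and the generation in which the CpGs were listed (colours). CpGs listed in F2 give the tallest bar in each set of windows, at 6.87%, 7.00% and 8.42%.

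Windows listed in more than 1 generation held listed CpGs more often than those listed in 1 generation. On scaffolds 0 to 86 the F1 shares were 9.35% of 2791 and 5.26% of 9256 windows. For F2 they were 10.3% of 2719 and 6.11% of 9844, and for F3 10.3% of 2547 and 7.08% of 7782. The order was the same in each generation, but the generations are not separate observations here. The windows listed more than once are 3878 distinct windows, each counted in every generation that lists it. Read depth and the number of CpGs per window, which can raise the chance of listing for windows and for CpGs alike, were not analysed here, and their part in this difference was not tested.

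Among the annotation classes the intergenic windows within 50 kb held an intermediate place. Over the full tables, promoter windows held a listed CpG of their own generation in 12.9% of cases in F1, 10.4% in F2 and 15.4% in F3. Introns had the lowest shares, 5.26%, 5.76% and 6.49%. Intergenic windows beyond 50 kb lay closest to those within 50 kb, with 7.85%, 7.16% and 9.30%. By distance the F1 share lay between 6.78% up to 5 kb and 7.90% from 20 to 30 kb, the F2 share between 6.19% from 40 to 50 kb and 7.44% from 5 to 10 kb, and the F3 share between 8.62% from 40 to 50 kb and 9.94% from 20 to 30 kb. None of these showed a steady rise or fall with distance. The full-table shares rest on different scaffolds in each generation, so they do not rank the generations. On the scaffolds shared by all tables the share for windows within 50 kb was 6.21% in F1, 7.0% in F2 and 7.88% in F3. The shares by class and by distance were not limited to those scaffolds.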

How the data were processed

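Bisulfite capture reads were processed by the authors with Trimmomatic 0.32, BSMAP 2.74, Picard 1.93, methylKit 1.4.0, R 3.2.3 and HOMER 4.6, per the submitters' processing notes, on the cavPor3 assembly. The deposited window and CpG tables hold positions, annotation, nearest Ensembl identifier and distance to TSS, together with the authors' p-values, q-values and methylation differences of sGC against control, which are pooled results with no value per animal. These were not used, except to test that every listed row has an absolute difference of at least 2 percentage points. The deposited RNA tables hold raw read counts per gene and library (the authors' fold changes, dispersions and test results beside them were not used), which served here to check marker genes in CPM. TopHat2 is named for the RNA, and the counting tool is not given in the sources used here.

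Positions and annotation were analysed with Python 3.11.15, pandas 2.3.3 and numpy 2.4.6, and figures were drawn with matplotlib 3.10.9. The code was tested on simulated windows. Window starts, which differ by 1 between tables, were brought to a 1-based convention. CpG positions differ in numbering by 1 base between F1 and the other tables. In F3, 4062 repeated CpG rows were dropped. A window was shared if listed at the same start. Identifiers named are the 5 with the most windows, those among the 8 with the most windows listed in all 3 generations, and those of the longest regions, which were chosen after their values were seen.

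The planned RNA tests of the nearest genes and of gene lists were not run, because the tables give identifiers for windows and symbols for RNA, with no pairing of the 2. Window sequences were not used, since no genome of this build was at hand. The windows and lists were chosen with earlier results of these data known.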

Additional observations from a re-analysis of the deposited data

How the results depend on the processing

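Counting only windows within 20 kb of a TSS lowered the number to 8384 in F1, 6639 in F2 and 7068 in F3. When any overlap of at least 1 base counted as shared, in place of the same start, 9411 windows (25.4%) were listed in more than 1 generation and 1181 (3.19%) in all 3. The second of these, and regions made by joining overlapping windows, with 652 of 28249 (2.31%) holding windows of all 3 generations, were alternatives chosen after seeing the data, as were the limit to scaffolds 0 to 86 and CpG positions 1 base lower. These larger counts follow from the looser definition of a shared position. Joining overlapping windows within a generation, the limit to scaffolds 0 to 86 and the CpG shift left each count within 1.5 times its value, but the limit to scaffolds 0 to 86 turned the order of the generations, as given with the results. The tables hold no depth, so the precision of a window's value is unknown here. No paired analysis was possible because the window tables hold no values per animal. Other settings for RNA tests of the nearest genes and for sequence features were not run, for want of a pairing of identifiers with symbols and of a genome.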
